A study of Mus musculus with 6 samples.

Results

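The genes described here encode 8 small structural RNAs, namely the vault RNA Vaultrc5, the Y RNAs Rny1 and Rny3, the U3 RNA Rnu3a, the minor spliceosome RNA Rnu12, the RNase MRP RNA Rmrp, the RNase P RNA Rpph1 and the 7SK RNA Rn7sk, together with Mvp, the major protein of the vault particle. These 9 genes, of 19938 genes measured, were chosen by their symbols after their values in miR-342-3p and control transfected cells were known, so their differences are a description and carry no test. RAW264.7 cells, an established mouse macrophage-like line, received either a synthetic mimic of miR-342-3p, which works in place of the natural mature microRNA, or a scrambled mimic without that sequence (miR-negative control). Total RNA was extracted with Trizol 18 h after transfection, and 150 ng of each sample was amplified and hybridized to an Affymetrix whole-transcript mouse gene array, with 3 miR-342-3p arrays and 3 control arrays. Both groups are cells of 1 line transfected with a mimic, and an untransfected group was not analysed here. The arrays of a group are given as independent experiments, without mention of separate cell stocks, so the spread between arrays may be in part technical.

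The mimic stands for the mature mouse microRNA, which RefSeq (assembly GRCm38.p6) places on the plus strand at chr12:108658680-108658702. Its 23 bases are printed because they are the agent given to 1 group and not the other, with the seed (bases 2 to 8), which pairs with target mRNAs, in capitals.
mmu-miR-342-3p: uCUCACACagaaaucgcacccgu
The probe set of its own gene, Mir342, stood at a log2 value of 5.81 ± 0.25 in miR-342-3p and 5.43 ± 0.068 in control arrays (SD, n = 3 each). This value was not taken as a measure of how much mimic entered the cells.

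Small structural RNAs do not code for protein but form the core of ribonucleoprotein particles. Vault RNAs sit in the vault, a large hollow particle of the cytoplasm. Y RNAs bind the Ro60 autoantigen and the La protein (gene Ssb), U3 guides the cleavage of the ribosomal RNA precursor, U12 recognizes the branch site of minor introns, the RNase MRP and RNase P RNAs are the RNA parts of enzymes that cut ribosomal and transfer RNA precursors, and 7SK holds the elongation factor P-TEFb inactive. Vault, Y, RNase MRP, RNase P and 7SK RNAs are made by RNA polymerase III, and U3 and U12 by RNA polymerase II. Most carry no poly(A) tail, and random priming of total RNA, as in whole-transcript labeling, can still read them.

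Values are log2 values after RMA, a procedure that subtracts background, equalizes the distributions of the arrays and condenses the probes of each probe set to 1 value, and a difference of 1 is a factor of 2. All differences are miR-342-3p minus control, with the standard error from limma, which fits every gene separately but shares information on the spread across genes. Genes outside the set were called at an FDR under 0.1. Of all 19938 genes, 1479 were called lower (7.42%) and 825 higher (4.14%), 11.6% in all. With each array centred on its median this split was 1379 lower and 408 higher, and after a repeated quantile normalization 1424 lower and 1817 higher. Correlations between the miR-342-3p arrays were 0.9909 to 0.9926, below the 0.9982 to 0.9986 between the control arrays. The 19 macrophage identity genes had group means of 7.32 to 12.66 in miR-342-3p and 7.49 to 12.8 in control arrays (medians 11.16 and 11.22), the 10 fibroblast genes medians of 6.68 in miR-342-3p and 6.38 in control arrays, and the 8 lymphocyte genes a median of 6.0 in each group. Levels of different probe sets depend on their probes and were not set against each other. In RNA of whole cultures, more cells making an RNA and more of it per cell cannot be told apart.

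The vault RNA had the largest positive difference of all genes. Vaultrc5 read 11.86, 12.25 and 11.45 in miR-342-3p replicates 1, 2 and 3, against 9.46, 8.45 and 8.65 in control replicates 1, 2 and 3. The lowest miR-342-3p array lay 1.99 above the highest control array, so the groups stood far apart. The means were 11.85 ± 0.4 in miR-342-3p and 8.85 ± 0.53 in control arrays (SD, n = 3 each), a difference of 3.00 (standard error 0.27), or 8.01-fold. Over the alternative settings and with any array left out the difference was 2.80 to 3.30. RefSeq annotates the gene as a long non-coding RNA of 345 bases at chr18:36801763-36802107. Which part of these bases the probe set reads was not determined.

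The gene of the protein that builds the vault differed little beside that of its RNA. Mvp, at chr7:126986860-127014594, read 9.16, 9.63 and 9.32 in miR-342-3p arrays, against 9.13, 9.12 and 9.16 in control arrays. The control arrays were almost level, replicate 2 was the high array among the miR-342-3p samples, and replicate 1 lay within the controls, so the groups overlapped. The difference was 0.23 (standard error 0.12), or 1.18-fold, and 0.10 without miR-342-3p replicate 2. The other protein genes of the particle, Parp4 (a poly(ADP-ribose) polymerase) and Tep1 (the telomerase-associated protein), had no probe set assigned to them alone and were not analysed here.

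The Y RNAs lie next to each other on chromosome 6, with 6345 bases between Rny3 at chr6:47781624-47781724 and Rny1 at chr6:47788070-47788180, and differed in how much they changed. Rny1 read 10.27, 11.17 and 10.28 in miR-342-3p arrays and 9.0, 7.56 and 8.31 in control arrays. Its control arrays were the most spread of the set, yet all 3 lay below every miR-342-3p array, the nearest by 1.27. The means of 10.57 ± 0.51 in miR-342-3p and 8.29 ± 0.72 in control arrays (SD, n = 3 each) differed by 2.28 (standard error 0.35), or 4.87-fold. For Rny3 the values were 13.00, 13.18 and 12.90 in miR-342-3p arrays and 12.85, 12.45 and 12.82 in control arrays. The groups were parted by only 0.05, the gap between miR-342-3p replicate 3 and control replicate 1. The difference of Rny3 was 0.32 (standard error 0.12), or 1.24-fold, and 0.187 to 0.387 over the alternatives. The highest value of any probe set on any array was 13.62, so Rny3 had less room above it on this scale than Rny1; the part of this in the smaller difference was not tested.

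U3 and U12, made by RNA polymerase II, were also higher in miR-342-3p-transfected cells. Rnu3a, the U3 RNA of the small-subunit processome, read 10.52, 11.31 and 10.16 in miR-342-3p arrays, against 9.30, 8.73 and 8.73 in control arrays. The groups lay 0.87 apart, with means of 10.66 ± 0.59 in miR-342-3p and 8.92 ± 0.32 in control arrays (SD, n = 3 each). The difference was 1.74 (standard error 0.27), or 3.34-fold. RefSeq places the 212 bases of Rnu3a at chr10:40258468-40258679. Near-identical copies of U3, and copies or pseudogenes of the Y, U12 and 7SK RNAs elsewhere in the genome, could be read by the same probes, so the values of Rnu3a, Rny1, Rny3, Rnu12 and Rn7sk may not come from the given locus alone.

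Rnu12, whose RNA base-pairs with the branch site of minor introns, read 9.34, 10.37 and 8.98 in miR-342-3p arrays and 8.89, 8.37 and 8.58 in control arrays. MiR-342-3p replicate 2 stood at least 1 log2 unit above the other arrays of its group, and replicate 3 lay only 0.08 above the highest control array. The difference of 0.95 (standard error 0.31), or 1.93-fold, thus leaned on replicate 2, without which it was 0.54. Its 150 bases lie at chr15:83149645-83149794.

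Among the RNAs of the RNA-cutting enzymes, Rmrp read 11.98, 12.39 and 11.64 in miR-342-3p arrays and 11.47, 11.12 and 11.47 in control arrays. The groups lay 0.18 apart, and replicate 2 was again the high miR-342-3p and the low control array. Means of 12.01 ± 0.38 in miR-342-3p and 11.35 ± 0.2 in control arrays (SD, n = 3 each) gave a difference of 0.65 (standard error 0.18), or 1.57-fold, which was 0.46 without miR-342-3p replicate 2. Rpph1, the catalytic RNA of RNase P, read 12.85, 12.95 and 12.69 in miR-342-3p arrays, against 12.58, 12.23 and 12.37 in control arrays. All miR-342-3p arrays lay above the control arrays, the nearest by 0.11. The difference was 0.43 (standard error 0.11), or 1.35-fold. Its values lay not far below 13.62, the highest of any probe set on any array, and the part of this in the difference was not tested. Rmrp spans 275 bases at chr4:43492785-43493059 and Rpph1 325 bases at chr14:50807447-50807771.

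The 7SK RNA was the small RNA whose groups overlapped. Rn7sk read 12.82, 12.93 and 12.94 in miR-342-3p arrays and 12.85, 12.84 and 12.89 in control arrays. The difference was 0.04 (standard error 0.074), or 1.03-fold, less than the spread between the miR-342-3p arrays (SD 0.066). A further probe set assigned to Rn7sk, not used because its interquartile range was smaller, read 13.30, 13.34 and 13.28 in miR-342-3p arrays, against 13.27, 13.28 and 13.31 in control arrays, a difference of 0.02. Both probe sets were close to the top of the scale at 13.62, where an increase of the 332-base RNA (chr9:78175302-78175633) has little room; the part of this in the result was not tested.

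**Figure D1:**
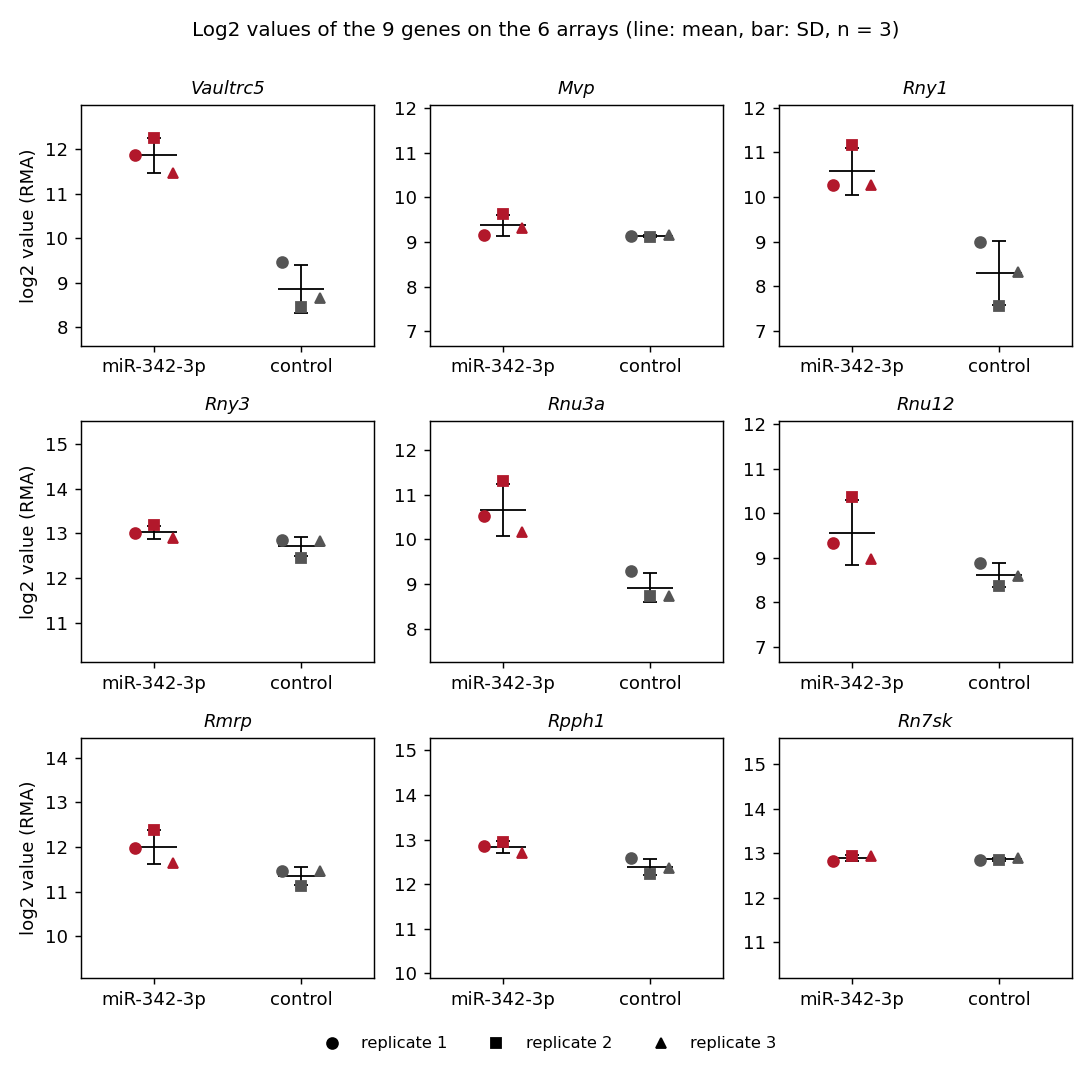
Log2 values (y axis, RMA) of the 9 genes on the 3 miR-342-3p (red) and 3 control (grey) arrays, with symbols for the replicate, a line for the mean and a bar for the SD; every panel spans the same height. Vaultrc5, Rny1 and Rnu3a are clearly parted between the groups, Rny3, Rnu12, Rmrp and Rpph1 by 0.05 to 0.18, and the groups of Mvp and Rn7sk overlap.

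In all, 7 of the 8 small RNAs had every miR-342-3p array above every control array, which held for 21.4% of all genes, and none had the reverse, which held for 15.5%. In the fit over all genes 5 of the 8 (Vaultrc5, Rny1, Rnu3a, Rmrp and Rpph1) were among the genes called higher, beside 4.14% of all genes. Nothing is read from these counts, as the set was selected on the same values. With any control array or miR-342-3p replicate 1 left out, the calls that stayed were Vaultrc5, Rny1 and Rnu3a, 3 of the 8, and the same limit holds. Of all 19938 genes, 202, 203 and 234 were called without control replicate 1, 2 or 3, and 1661 without miR-342-3p replicate 1. By difference, Vaultrc5 ranked 1, Rny1 4, Rnu3a 7, Rnu12 34, Rmrp 85, Rpph1 279, Rny3 757, Mvp 2138 and Rn7sk 11249 of 19938 genes. Neighbours in this order differed by less than the sum of their standard errors, except Vaultrc5 from Rny1 (0.72 against a sum of 0.62), Rnu3a from Rnu12 (0.79 against 0.58) and, narrowly, Mvp from Rn7sk (0.19 against 0.19). Over 13 settings for each of the 9 genes, all 117 differences kept their sign and stayed within 1 SD of the value given. The replicate block and the filter on low values cannot change a difference, nor can the choice of probe set except for Rn7sk. Leaving out 1 array cannot move a difference by 1 SD. Most of these outcomes were thus fixed in advance, and nothing is read from the count.

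The size of the change followed the array as well as the gene. The median change of the 8 small RNAs from their control means was 0.68, 1.4 and 0.33 in miR-342-3p replicates 1, 2 and 3. Replicate 2 was the highest miR-342-3p array for 7 of the 8 (for 31.9% of all genes), Rn7sk being the exception, and replicate 3 was the lowest for 6 of the 8 (34.9% of all genes). Vaultrc5, for example, lay 3.01, 3.40 and 2.60 above its control mean in these arrays, and Rnu12 0.73, 1.76 and 0.36. The control arrays had an order too, with replicate 2 the lowest for 8 of the 8 (29.2% of all genes) and replicate 1 the highest for 7 of the 8 (34.9%). Among these were near ties, Rnu3a at 8.73 in control replicates 2 and 3 and Rn7sk at 12.84 in replicate 2 and 12.85 in replicate 1. Rny1, by contrast, was 0.71 above its control mean in control replicate 1 and 0.73 below it in control replicate 2, within a group that had the same treatment.

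In other classes of structured small RNAs miR-342-3p replicate 2 was also most often the highest array of its group, while the rest of the order was shared only in part. Among 54 genes of small nucleolar and Cajal body RNAs (snoRNAs and scaRNAs, which guide modification of ribosomal and spliceosomal RNA), replicate 2 was the highest miR-342-3p array for 45 (83.3%) and the lowest control array for 42 (77.8%), but the lowest miR-342-3p array was most often replicate 1 (32, 59.3%) and not replicate 3 (17, 31.5%). Replicate 2 was the highest miR-342-3p array for 6 of 6 other small structural RNA genes, but for 45 of 300 microRNA genes (15.0%). For the 6 other small structural RNA genes, control replicate 2 was the lowest for 3 and the highest for 2, and replicate 1 the highest for 1, unlike the 8 small RNAs. The median change in miR-342-3p replicates 1, 2 and 3 was 0.04, 0.54 and 0.23 over the snoRNA and scaRNA genes, 0.36, 0.64 and 0.25 over the other small structural RNA genes, 0.18, 0.00 and 0.05 over the microRNA genes and 0.11, 0.04 and 0.03 over all genes. The part of these array values in the differences was not tested.

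**Figure D2:**
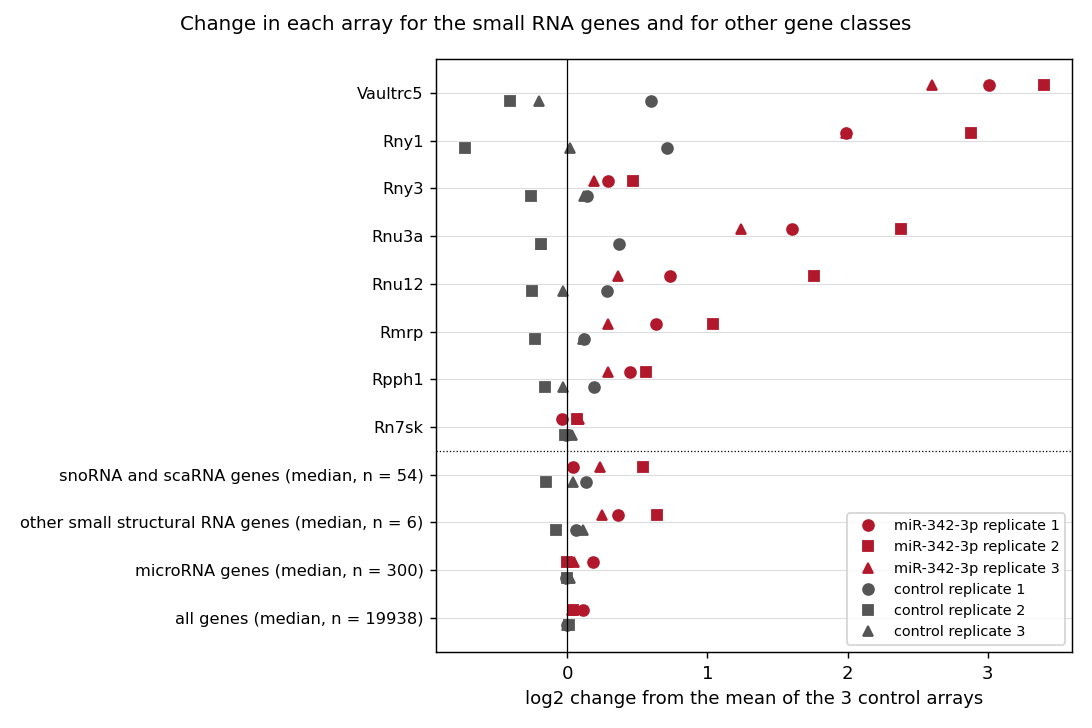
Change of each array from the mean of the 3 control arrays (x axis, log2) for the 8 small RNA genes and, below the dotted line, the median over 4 gene classes; red symbols are miR-342-3p and grey symbols control arrays, and the shape gives the replicate. MiR-342-3p replicate 2 (squares) lies furthest right for all small RNAs but Rn7sk and for the snoRNA and other small RNA classes. In the same rows control replicate 2 lies furthest left, for Rnu3a level with control replicate 3.

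Genes of the same kinds that were not in the set give the wider picture. Of the 54 snoRNA and scaRNA genes 15 were called higher and 4 lower (limma, FDR under 0.1), with a median difference of 0.235, against 0.069 over all genes. The box H/ACA RNAs Snora31 and Snora44 rose by 2.57 each (FDR = 0.000358 and 0.00591 in limma), and the box C/D RNA Snord104 rose by 1.34 (FDR = 0.00724). Snora31 read 10.43, 10.76 and 10.37 in miR-342-3p arrays, against 8.19, 7.88 and 7.79 in control arrays, so its groups were as clearly parted as those of Vaultrc5. Of the 15 higher calls, 6 (Snora31, Snora44, Snord104, Scarna17, Snora73a and Snora73b) stayed in all 14 alternatives, and the other 9 were lost without at least 1 control array. Snord61 was lower by 0.86 and Snord96a by 0.46 on the log2 scale (FDR = 0.0204 and 0.0609), calls lost without control replicate 1. Scarna8 and Snord95, the other 2 genes called lower, had differences of -0.39 and -0.35. Snord58b had the largest negative difference (-0.96, FDR = 0.215), with miR-342-3p replicate 1 at 3.45 and the other arrays of its group at 5.41 and 5.35.

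Of the 6 further small structural RNA genes, 3 were called higher and none lower. Rnu7, the RNA of the U7 particle that processes histone mRNA ends, had a difference of 0.55 (FDR = 0.0378). The RNase P-like gene Rprl2 had one of 0.48 (FDR = 0.0519) and the telomerase RNA Terc one of 0.32 (FDR = 0.0525). These 3 calls were each lost without control replicate 1 or 2. Rprl1 (0.36), Rnu5g (0.49) and Rnu6 (-0.23) were not called, and Rnu6, at 1.98 ± 0.17 in miR-342-3p and 2.20 ± 0.24 in control arrays (SD, n = 3 each), was among low values where little can be measured. The 300 microRNA genes, by contrast, had a median difference of 0.0677, next to 0.069 over all genes. Of these genes 5 were called higher and 9 lower, and none of the 14 calls stayed with every control array left out in turn. The largest differences were those of Mir15b (-1.04, FDR = 0.069), Mir505 (-0.83, not called) and Mir181b-1 (-0.78, not called) below 0, and of Mir92b (0.47, FDR = 0.0781), Mir320 (0.45, not called) and Mir375 (0.43, FDR = 0.0909) above it. The other 3 called higher were Mir24-2 (0.41), Mir369 (0.27) and Mir376b (0.28).

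The genes most like each small RNA over the 6 arrays, by Euclidean distance of the values after subtraction of the control mean, included small RNAs and protein-coding genes. Nearest to Vaultrc5 were Snora31 (distance 0.955), Snora44 (1.03) and Rny1 (1.36). Nearest to Rny1 were Il1f9, a cytokine gene of the IL-36 family (0.987), the myeloid surface antigen gene Ly6g (1.0) and Snora44 (1.03). For Rnu3a they were Hilpda (0.66), which acts on lipid droplets, the glycine transporter gene Slc6a9 (0.676) and the chemokine gene Cxcl10 (0.72). For Rnu12 they were the steroid dehydrogenase gene Hsd3b6 (0.592), the antiviral gene Rsad2 (0.618) and the chemokine receptor-like gene Ccrl2 (0.63). For Rmrp they were the chemokine gene Ccl5 (0.19), Snora3 (0.194) and Rnf183 (0.211), for Rpph1 Rbpms2 (0.138), Dusp18 (0.147) and Trp53rka (0.15), and for Rny3 Ndufb7 (0.131), Gipc2 (0.16) and Cabp1 (0.163). Distances were not scaled, so they are smaller for genes with small differences and cannot be compared between the RNAs.

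Genes of the proteins that carry, make or trim these RNAs were mostly not called, and those called were mostly lower. Of 143 genes in 9 lists of such proteins, 3 were called higher and 32 lower (24.5% called, against 11.6% of all genes), with a median difference of -0.148, against 0.069 over all genes. The lists were drawn up with results of these data in view, and their counts are a description. The calls depended on the control arrays, since with control replicate 1, 2 or 3 left out only 1, 2 and 3 of the 35 called genes were still called, when 202, 203 and 234 genes remained called in all. Without miR-342-3p replicate 1, 2 or 3, 22, 30 and 35 of them were.

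Of 11 Y RNA binding proteins 2 were called lower, the nuclear matrix protein gene Matr3 (-0.73, FDR = 0.0615) and Hnrnpk (-0.28, FDR = 0.0685). With the probe set of the highest mean instead, Hnrnpk differed by -0.21 (FDR = 0.134) and was not called. The main partners of Y RNAs were not called. Ro60 had a difference of -0.23 (FDR = 0.182) and Ssb, which encodes the La protein that protects the 3′ ends of RNA polymerase III transcripts, one of -0.46 (FDR = 0.178), with 9.95, 9.29 and 10.17 in miR-342-3p arrays, against 10.32, 10.25 and 10.22 in control arrays. All arrays of the miR-342-3p group lay below those of the control group for Ssb, most of all replicate 2. Of 6 genes for vault and Y RNA modification and processing, Nsun2, the methyltransferase that modifies vault RNA, was called lower (-0.28, FDR = 0.0766).

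Of 35 genes for U3 particle and small-subunit processome proteins 9 were called lower and none higher, while Rnu3a itself was higher. The largest of these differences were those of the helicase gene Ddx10 (-0.72, FDR = 0.0741), the core box C/D protein gene Nop58 (-0.56, FDR = 0.0898), Utp11 (-0.51, FDR = 0.0201) and Nop14 (-0.50, FDR = 0.026). Rrp9, the U3-specific protein, differed by 0.08 (FDR = 0.669), within the spread of the miR-342-3p arrays (SD 0.24). Among 12 proteins of the minor spliceosome particle with U11 and U12, Snrnp25 and the helicase gene Dhx15 (-0.42, FDR = 0.0331) were called lower. Snrnp25 read 9.61, 9.61 and 9.67 in miR-342-3p arrays and 10.13, 10.08 and 10.22 in control arrays. Its groups were narrow and well apart (-0.51, standard error 0.075, FDR = 0.0143), and it was the only gene of the lists called with each array left out in turn.

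Proteins shared by RNase P and RNase MRP moved both ways. Of 11 genes 3 were called lower, namely Rpp40 (-0.62, FDR = 0.0301), Rpp30 (-0.55, FDR = 0.0185) and Pop4 (-0.34, FDR = 0.0747), and Rpp38 was called higher (0.30, FDR = 0.0574). Rpp30 read 9.26, 9.17 and 9.45 in miR-342-3p arrays and 9.88, 9.81 and 9.84 in control arrays, whereas both RNAs of these enzymes were higher. In the 7SK particle Larp7, the La-related protein that stabilizes 7SK, was called lower, with 7.68, 7.81 and 8.27 in miR-342-3p arrays, against 8.66, 8.71 and 8.69 in control arrays. Its difference was -0.76 (standard error 0.14, FDR = 0.0249), the largest of all 143 genes with the probe sets used, and Rn7sk showed none beyond its spread. With the probe set of the highest mean instead, Larp7 differed by -0.47 (FDR = 0.0521) and was no longer the largest, Ints8 standing at -0.75. Hexim2, an inhibitor of P-TEFb, was called higher (0.28, FDR = 0.093), and the other 5 genes of this list, among them Hexim1 (0.13, FDR = 0.375) and the capping enzyme gene Mepce (0.22, FDR = 0.267), were not called.

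The share of genes called differed between the lists of factors that transcribe and process small RNAs. It was 9.52% for the promoter factors, 21.4% for Integrator and 37% for 3′ end trimming, tailing and decay, against 11.6% of all genes. Of 21 genes for RNA polymerase III and small nuclear RNA promoter factors 2 were called lower, Gtf3c3 (-0.41, FDR = 0.0701) and Brf1 (-0.34, FDR = 0.0514), and neither Brf2 (-0.06, FDR = 0.79), the factor for promoters outside the gene body, nor Maf1 (0.15, FDR = 0.36), the repressor of RNA polymerase III, was called. Of 14 genes of the Integrator complex, which ends transcription of U RNA genes, 3 were called lower, with Ints8 at -0.75 (FDR = 0.0428), Ints7 at -0.34 (FDR = 0.0704) and Ints10 at -0.29 (FDR = 0.0902). Of 27 genes for 3′ end trimming, tailing and decay 9 were called lower and 1 higher, with the lowest median of the lists (-0.224). They included the exosome subunit genes Exosc8 (-0.67, FDR = 0.0192) and Exosc9 (-0.59, FDR = 0.0674), the exosome helicase gene Mtrex (-0.61, FDR = 0.0384) and its adaptor gene Zcchc7 (-0.60, FDR = 0.0972). Exosc8 read 10.10, 10.12 and 10.48 in miR-342-3p arrays, against 10.93, 10.93 and 10.85 in control arrays, with replicate 3 nearest to the controls. The gene called higher was Tut1, which adds uridines to U6 RNA (0.39, FDR = 0.0592).

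**Figure D3:**
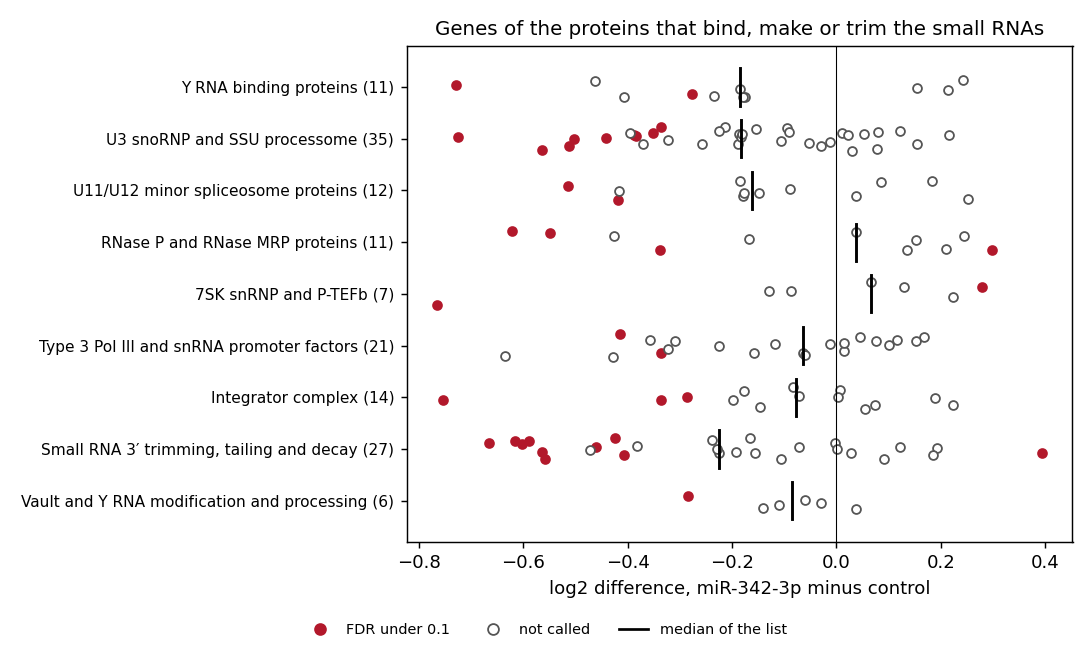
Difference between miR-342-3p and control arrays (x axis, log2, n = 3 each) of the genes in 9 lists of proteins that bind, make or trim the small RNAs, with the number of genes in each list in brackets; filled points have an FDR under 0.1 and the black line is the median of a list. Called genes lie mostly left of 0, 32 of 35, and the medians run from -0.224 to 0.0673.

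Genes that lie beside the members had differences of -0.42 to 0.40. Of 14 measured genes within 10000 bases of a member, 1 was called higher and 3 lower, and each of these 4 calls was lost when any control array was left out. Beside the vault RNA, Zmat2 (2102 bases away) differed by -0.23 (FDR = 0.19) and Hars2 (9200 bases) by -0.16 (FDR = 0.27). Pdia4, 7960 bases from Rny1, differed by -0.10 (FDR = 0.556), Gtf3c6, 755 bases from Rnu3a, by -0.12 (FDR = 0.551), and Poldip3, 266 bases from Rnu12, by 0.09 (FDR = 0.512). Arhgef39, 3079 bases from Rmrp, was called lower (-0.42, FDR = 0.0612), as was Pagr1a, 456 bases from Mvp (-0.26, FDR = 0.0842), and Cilk1, 3187 bases from Rn7sk, was called higher (0.40, FDR = 0.0901).

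The closest neighbour was Parp2, a DNA repair enzyme gene 125 bases from Rpph1. Ccdc107 lay 280 bases from Rmrp, slightly further than Poldip3 from Rnu12 (266 bases). Parp2 and Ccdc107 each have their start on the side of the small RNA gene. Parp2 read 9.02, 8.83 and 9.13 in miR-342-3p arrays, against 9.39, 9.35 and 9.33 in control arrays. It was called lower (-0.36, standard error 0.091, FDR = 0.0572) while Rpph1 across the gap was 0.43 higher, and replicate 2 was the lowest miR-342-3p array for Parp2 and the highest for Rpph1. Ccdc107 differed by 0.06 (FDR = 0.615) while Rmrp was 0.65 higher.

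The promoter table from RefSeq (GRCm38.p6) has no window for any of the 8 small RNA genes, and 1 for Mvp. The windows of Parp2 (chr14:50807666-50807965, plus strand) and Ccdc107 (chr4:43493115-43493414, plus strand), 300 bases each, are printed because they hold the stretch between Parp2 and Rpph1 and, without the bases nearest to Rmrp, that between Ccdc107 and Rmrp, with matches on either strand to the TATA-like letters TATAA, the octamer ATTTGCAT, the GC box GGGCGG and the CCAAT box in capitals.
Parp2: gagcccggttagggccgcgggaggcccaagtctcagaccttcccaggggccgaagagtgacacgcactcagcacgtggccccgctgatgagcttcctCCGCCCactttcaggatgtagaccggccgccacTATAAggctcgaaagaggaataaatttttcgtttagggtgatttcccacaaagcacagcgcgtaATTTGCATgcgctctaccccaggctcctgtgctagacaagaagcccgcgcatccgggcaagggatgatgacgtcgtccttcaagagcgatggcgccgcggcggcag
Ccdc107: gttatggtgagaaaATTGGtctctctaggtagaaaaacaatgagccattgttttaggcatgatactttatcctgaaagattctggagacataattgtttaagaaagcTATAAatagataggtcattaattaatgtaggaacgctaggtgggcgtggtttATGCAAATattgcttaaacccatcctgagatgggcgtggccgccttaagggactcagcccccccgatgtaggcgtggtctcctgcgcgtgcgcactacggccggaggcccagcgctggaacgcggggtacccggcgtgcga
The first 106 bases of the Parp2 window lie in Rpph1, whose annotated end is at 50807771, and the Ccdc107 window starts past the end of Rmrp at 43493059. In the Parp2 window TATAA begins 25 bases and the octamer ATTTGCAT 89 bases past Rpph1, and GGGCGG lies on the minus strand within Rpph1. In the Ccdc107 window CCAAT (minus strand) begins 70 bases, TATAA 163 bases and ATTTGCAT (minus strand) 215 bases past Rmrp. None of the matches overlap. Of 32851 promoter windows of the same table, 24.9% hold TATAA, 1.74% ATTTGCAT, 35.7% GGGCGG and 37.4% CCAAT. The window of Mvp (chr7:127014545-127014844, minus strand) holds 1 match, to GGGCGG. These matches are letters in a window and were not tested as binding sites.

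**Figure D4:**
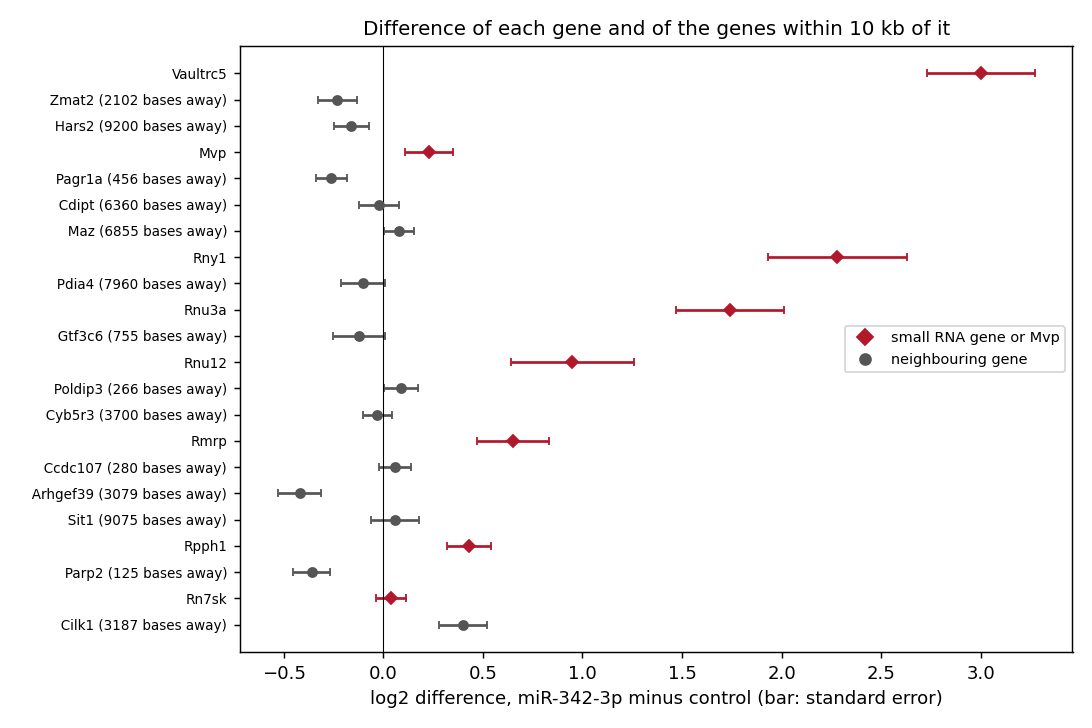
Difference between miR-342-3p and control arrays (x axis, log2; bars are the standard error from limma, n = 3 arrays each) of the small RNA genes and Mvp (red diamonds), each followed by the measured genes within 10 kb of it (grey circles). The neighbours lie between -0.42 and 0.40, while Vaultrc5, Rny1 and Rnu3a lie at 3.00, 2.28 and 1.74; Rny3, without a measured neighbour other than Rny1, is left out.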

How the data were processed

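The deposited log2 values were made from the array scans with RMA (version not given in the sources used here), for 35556 probe sets on each of 6 arrays, with medians within 0.151 of each other. Platform annotation gave 1 gene for 21789 probe sets, several for 1621 and none for 12146. Probe sets with several genes were left out, and for a gene with several probe sets the one with the largest interquartile range over the 6 arrays was kept, as in the study. The 19938 genes were fitted with lmFit and eBayes of limma 3.58.1 in R 4.3.3, adjusted by Benjamini and Hochberg and called at an FDR under 0.1. Steps were tested on simulated data. Figures were made with matplotlib 3.10.9 in Python 3.11.15. The number of arrays limits the precision.

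The members and the gene lists were chosen with earlier results of these data known. Named genes are all members, up to 4 called genes with the largest absolute difference of each protein list, the direct binders of the RNAs, the 3 largest differences in each direction of the other RNA classes and the 3 nearest genes of members whose groups do not overlap. Tut1, Scarna8, Scarna17, Snora73a, Snora73b, Snord95, Mir24-2, Mir369, Mir376b and the neighbouring genes were added after values were seen.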

Additional observations from a re-analysis of the deposited data

How the results depend on the processing

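Of the 8 small RNAs, 7 were higher without overlap under each alternative that gave a value except 1, with 8 without miR-342-3p replicate 1 (7 to 8 with an array left out). Leaving out an array cannot create an overlap, and the probe set choice and the filter leave the values of these 7 unchanged. Those counts could therefore not fall, and nothing is read from them. The number of genes called was 2304. It was 202 to 4526 with an array left out, the lowest without control replicate 1 and the highest without miR-342-3p replicate 3. It was 52 at an FDR of 0.01 or less, 4035 with the methods' t-test unadjusted at 0.05 and 1 with its adjusted values. The 35 called genes of the protein lists became 1 to 57 with an array left out (22 without miR-342-3p replicate 1) and 0 at an FDR of 0.01 or less in limma, against 61 at an unadjusted p under 0.05 and 47 by the t-test. The number of genes called was 1661, 3001 and 4526 without miR-342-3p replicate 1, 2 or 3. Without control replicate 1, 2 or 3 this number was 202, 203 and 234. Leaving out an array of either group removes a residual degree of freedom, and causes were not tested. Other settings (probe set choice, a filter on low values, scaling, the prior and array weights) gave 1787 to 3241 genes and 30 to 42 genes of the lists.

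Same-numbered arrays did not deviate in the same direction (correlations of -0.308, -0.163 and -0.106, against -0.0687 to 0.228 for the other pairs). These correlations cannot settle whether arrays of the same number came from a shared experiment. With the replicate number as a block 1995 genes and 33 genes of the lists were called, 28 of them among the 35, and 6 of the 8 small RNAs were, Rnu12 being added.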
